A study of Homo sapiens with 4 samples.

Results

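The response to CPYPP of the lines MDA-MB-231 and MDA-MB-435 was compared gene by gene, to find which genes and pathways responded more in one line than in the other. For each gene the difference D was taken as the log2 fold change of CPYPP over control in MDA-MB-435 minus that in MDA-MB-231, so that a D of 1 is a fold change 2 times as large in MDA-MB-435. A gene was kept if each line had a library with 50 or more counts for it, which left 11084 of the 61806 genes in the table. CPYPP is a small molecule known as an inhibitor of DOCK proteins, which activate the GTPase Rac, and the study used it to trigger paraptosis, a form of cell death with large cytoplasmic vacuoles.

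Poly(A)-selected RNA was sequenced from 4 cultures, namely MDA-MB-231 control, MDA-MB-231 with CPYPP, MDA-MB-435 control and MDA-MB-435 with CPYPP. All were labelled wild type, and the treatment was 10 µM CPYPP for 6 h. The vehicle of the controls is not given in the sources used here. The growth and treatment texts name MDA-MB-435 for every sample, so the line was taken from the cell line label. There was 1 library per condition, so the spread between cultures is unknown, D has no replicate check, and no p-value is given. Each D stands with a 95% interval that covers counting error only. A D of 1 or more, or of -1 or less, is called here a difference, as a rule of size.

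MDA-MB-231 is a basal-like breast cancer line. MDA-MB-435 was labelled as breast cancer cells, and it is known as a line of melanoma origin, which is also how the study describes it. SOX10, a transcription factor of the melanocyte lineage, had 0 and 1 counts in the MDA-MB-231 control and CPYPP libraries, against 3031 and 707 counts for MDA-MB-435. Of 10 melanocyte genes, 8 had the higher control level in MDA-MB-435, and the exceptions were MITF and PMEL. The pigment genes PMEL, MLANA, TYR and TYRP1 had at most 16 counts in either MDA-MB-435 library. The 10 genes summed to 73.9 and 44.7 CPM (counts scaled to a common library size) in MDA-MB-231 and to 402 and 260 CPM in MDA-MB-435. MITF, a transcription factor gene, made up 71.0 and 41.2 CPM of the sums in MDA-MB-231, against 59.1 and 42.3 CPM in MDA-MB-435. All 9 epithelial genes had the higher control level in MDA-MB-231, with sums of 2353 and 2072 CPM there and 456 and 358 CPM in MDA-MB-435, and CDH1 had 0 counts in both MDA-MB-435 libraries. The libraries held between 17196385 and 22663954 counts, the share of mitochondrial counts was lower after CPYPP in both lines (5.34% and 4.21%, then 4.73% and 3.55%), and the part of these values in any D was not tested.

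Several stress programs bear on the results. In the integrated stress response, kinases that sense misfolded protein, lack of amino acids or other damage slow translation while the transcription factor ATF4 is made in larger amount, and ATF4, with its partner CHOP (DDIT3), switches on genes of amino acid import and redox balance. HSF1 switches on heat shock chaperones when proteins misfold in the cytosol and nucleus. NRF2 switches on genes of glutathione, thioredoxin and heme metabolism under oxidative or electrophilic stress.

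HMOX1 and the HSP70 genes HSPA1A, HSPA1B and HSPA6 were among the most increased genes of both lines. The highest median D among the 45 lists examined, 0.64, belonged to a list of ATF4 and CHOP targets. The lists were chosen with earlier results of these data known. The list of amino acid and one-carbon synthesis, which holds the ATF4 target ASNS, had a median of 0.09. The median D over all genes was 0.04, with quartiles at -0.19 and 0.24, and 95% of the genes lay between -0.93 and 0.71. The extremes were -3.57 and 4.63. A D of 1 or more was found for 94 genes (0.848% of 11084), and a D of -1 or less for 228 genes (2.06%). The counting interval lay clear of 0 for 94 of the 94 and for 227 of the 228, with HSPA6 as the exception. D was above 0 for 6120 genes (55.2%), a share that came to 46.9% when the libraries were scaled by total counts. Within the lines, 188 genes (1.7%) were at least 2-fold higher and 153 (1.38%) at least 2-fold lower after CPYPP in MDA-MB-231, against 244 (2.2%) and 342 (3.09%) in MDA-MB-435. The standard deviation of the log2 fold changes was 0.447 in MDA-MB-231, against 0.529 in MDA-MB-435.

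**Figure D1:**
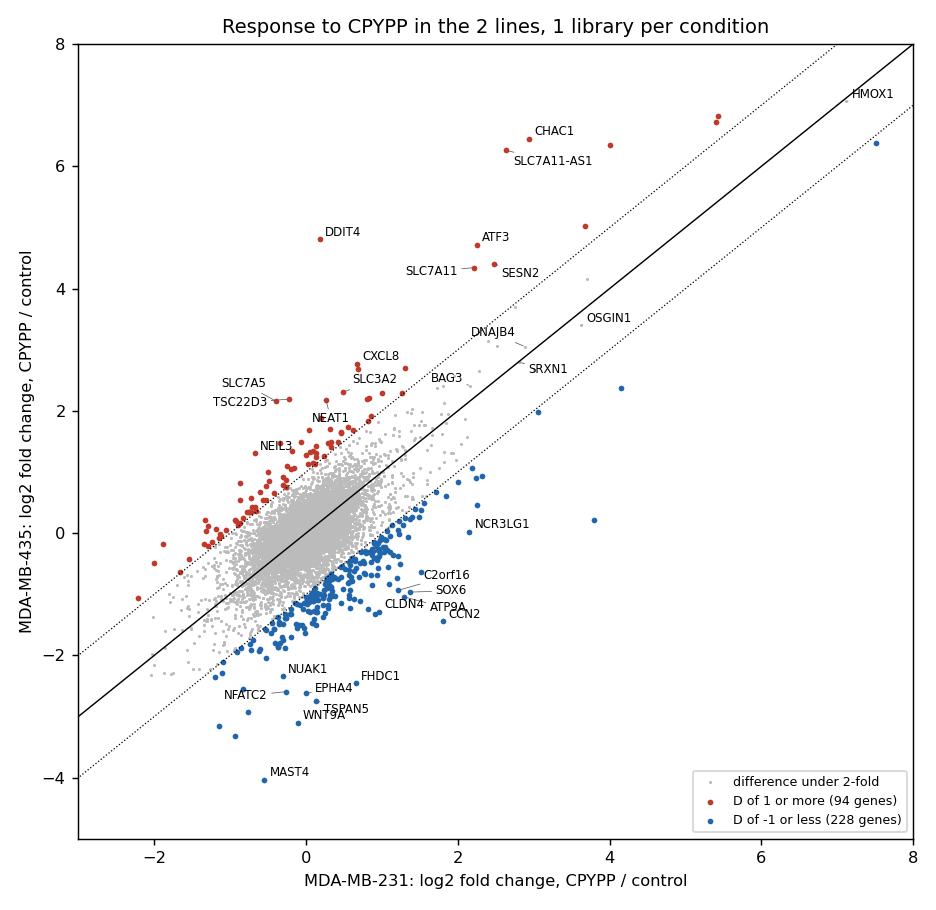
Log2 fold change after CPYPP in MDA-MB-231 (x axis) against that in MDA-MB-435 (y axis) for 11084 genes, with 1 library per condition and no error bars. The solid line marks equal responses and the dotted lines a D of 1 and of -1; HMOX1 lies on the line at the top right, DDIT4 and CHAC1 lie far above it and MAST4 and CCN2 far below.

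The genes with equal responses show what the lines had in common. HMOX1, heme oxygenase 1 and a target of NRF2, had 158 and 16468 counts in the control and CPYPP libraries for MDA-MB-231, against 443 and 47504 in those of MDA-MB-435. Its fold change was 139 in MDA-MB-231, against 134 in MDA-MB-435, with a D of -0.06 (interval -0.32 to 0.21). SRXN1, which encodes sulfiredoxin, was 7.0-fold and 6.94-fold higher, from 137 to 719 counts and from 399 to 2224 counts. OSGIN1, DNAJB4 and BAG3, the other genes with large and like rises, had D values of -0.22, 0.16 and 0.25. The interval of BAG3, 0.15 to 0.34, lay clear of 0. DNAJB4 is an HSP40 co-chaperone, and BAG3 hands clients of HSP70 on to autophagy.

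The largest D belonged to DDIT4 (ENSG00000168209, chr10:72273919-72276036, GRCh38), which encodes REDD1, an inhibitor of the growth kinase complex mTORC1 made under stress. DDIT4 had 1186 counts in the MDA-MB-231 control and 1008 with CPYPP, and 92 counts in the MDA-MB-435 control and 2066 with CPYPP. The MDA-MB-435 control stood far below the other 3 libraries. In bulk RNA, fewer cells with a transcript and less of it per cell cannot be told apart. In CPM, the level was 53.2 and 60.2 in MDA-MB-231, while MDA-MB-435 had 3.87 and 108. The fold change was 1.13 in MDA-MB-231, against 28.0 in MDA-MB-435, which gave a D of 4.63 (interval 4.30 to 4.95).

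CHAC1 (ENSG00000128965, chr15:40952962-40956512) breaks down glutathione and is a known target of ATF4 and CHOP. Its counts were 42 and 242 in MDA-MB-231, against 15 and 1054 in MDA-MB-435, with fold changes of 7.68 and 87.5 and a D of 3.51 (interval 2.64 to 4.38). ATF3 (ENSG00000162772, chr1:212565334-212620777), a stress-induced transcription factor, had 142 and 506 counts in MDA-MB-231, against 114 and 2406 in MDA-MB-435. Here the controls were alike, at 6.36 and 4.79 CPM, and the CPYPP libraries stood at 30.2 and 126 CPM, with a D of 2.47 (interval 2.09 to 2.85). SESN2, sestrin 2, which restrains mTORC1 when leucine is short, went from 109 to 456 counts and from 160 to 2719 counts, with a D of 1.92 (interval 1.54 to 2.30). For all 3 genes both lines had the higher level after CPYPP, and the MDA-MB-435 library with CPYPP was the highest of the 4.

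ATF4 itself and its partners had smaller D values. ATF4 had 3441 and 3810 counts in MDA-MB-231, against 6689 and 14544 in MDA-MB-435, with log2 fold changes of 0.56 and 1.44 and a D of 0.88 (interval 0.80 to 0.95). DDIT3, which encodes CHOP, had 307 and 462 counts, then 190 and 749, with a D of 1.29. GDF15, a secreted stress factor, had 86 and 51 counts in MDA-MB-231, against 196 and 436 in MDA-MB-435. Its fold change was 0.79 in MDA-MB-231, with a counting interval that spans 1 (0.56 to 1.12). In MDA-MB-435 it was 2.77 (interval 2.34 to 3.28). TRIB3, a pseudokinase that dampens the pathway, and CEBPG, a partner of ATF4, had D values of 0.81 and 0.86, short of 1. CEBPG was higher in MDA-MB-231 with CPYPP (112 CPM) than in MDA-MB-435 with CPYPP (88.0 CPM). Of 26 ATF4 and CHOP targets listed, 19 had enough counts, of which 6 had a D of 1 or more (DDIT4, CHAC1, ATF3, SESN2, GDF15 and DDIT3) and 1 had a D of -1 or less (SLFN5, -1.07), beside 0.848% and 2.06% of all genes. The median D of the 19 was 0.64, beside 0.04 over all genes, from median log2 fold changes of 0.84 in MDA-MB-231, against 1.44 in MDA-MB-435. Targets with a D near 0 included CDKN1A (-0.02) and KLHL24 (-0.05). PPP1R15A, the phosphatase subunit GADD34 that restarts translation, had a D of 0.31 (interval 0.23 to 0.40).

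ATF4 and CHOP act through a composite DNA element, CARE, searched here as TGATGNAA on both strands in the 250 bases before the RefSeq start of each gene (GRCh38.p14). Of the 15 ATF4 and CHOP targets with a window in the RefSeq promoter table, 3 held it, namely ATF3, CEBPG and CHAC1. It stood in 3.89% of the windows of all 27305 genes in that table and in 2.12% of the 8765 windows found for the 10873 genes here that have a symbol. Among genes with a D of 1 or more it stood in 4 of 62 windows, and among those with a D of -1 or less in 4 of 160. The stretches around the element in CHAC1 and ATF3 are shown because both genes had a D above 2 and hold the element. Capitals mark the element, CHAC1 is read from chr15:40953251-40953280 and ATF3 from chr1:212565157-212565333, both on the plus strand.
CHAC1: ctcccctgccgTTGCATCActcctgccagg
ATF3: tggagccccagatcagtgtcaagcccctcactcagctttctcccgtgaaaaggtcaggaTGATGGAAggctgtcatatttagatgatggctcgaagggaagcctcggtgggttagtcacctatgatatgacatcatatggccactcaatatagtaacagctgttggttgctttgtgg
A match shows only that these letters are present, and no binding was measured.

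Amino acid import held 3 more of the largest differences. SLC7A5 (ENSG00000103257, chr16:87830023-87869507) carries leucine and other large neutral amino acids. It had 18458 and 10506 counts in MDA-MB-231, against 1888 and 6777 in MDA-MB-435. The fold change was 0.759 in MDA-MB-231, against 4.47 in MDA-MB-435, and D was 2.56 (interval 2.48 to 2.64). SLC3A2, the heavy chain that SLC7A5 and SLC7A11 need at the cell surface, had 6427 and 6776 counts, then 2767 and 10991, with a D of 1.82 (interval 1.74 to 1.89). The MDA-MB-435 control was the lowest of the 4 libraries for both genes, and with CPYPP MDA-MB-435 stood below MDA-MB-231 for SLC7A5 (355 against 628 CPM) and above it for SLC3A2 (575 against 405 CPM).

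SLC7A11 (ENSG00000151012, chr4:138164097-138242349), the cystine importer that feeds glutathione synthesis and a target of both ATF4 and NRF2, depended on the scale. Its counts were 5380 and 18742 in MDA-MB-231, against 845 and 13770 in MDA-MB-435, with fold changes of 4.64 and 20.3 and a D of 2.13 (interval 2.02 to 2.24). In CPM the gain was larger in MDA-MB-231, at 878 against 685. SLC7A11-AS1, whose span overlaps that of SLC7A11, had 31 and 145 counts, then 2 and 123, and its fold change was 12.3 times as large in MDA-MB-435 (interval 2.88 to 52.4). That value rests on 2 control counts in MDA-MB-435, and with a prior count of 5 its D went from 3.62 to 1.9. Whether counting used strand is not given in the sources used here, so reads of the pair in their overlap cannot be told apart. Of 13 amino acid transporters kept from 19 listed, 3 reached a D of 1 (SLC7A5, SLC3A2 and SLC7A11) and none reached -1. Over all genes these shares were 0.848% and 2.06%. The median D of the 13 was 0.24. SLC38A2 and SLC1A5, which import neutral amino acids such as glutamine, had D values of 0.44 and 0.49, and SLC38A1 had -0.17.

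Genes of amino acid synthesis had a median D near that of all genes. Of 16 genes of amino acid and one-carbon synthesis, 1 reached a D of 1 (0.848% of all genes), and the median was 0.09. That gene was MTHFD2, the mitochondrial folate enzyme, with 1708 and 1760 counts in MDA-MB-231, against 3063 and 7750 in MDA-MB-435, and a D of 1.2 (interval 1.08 to 1.31). ASNS, asparagine synthetase and a classical ATF4 target, was higher after CPYPP in both lines, with log2 fold changes of 3.0 and 2.67 from 14 and 63 control counts. Of 20 cytosolic aminoacyl-tRNA synthetases, which load tRNAs, 17 had a D above 0, with a median of 0.15 and the highest value, 0.71, for GARS1.

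**Figure D2:**
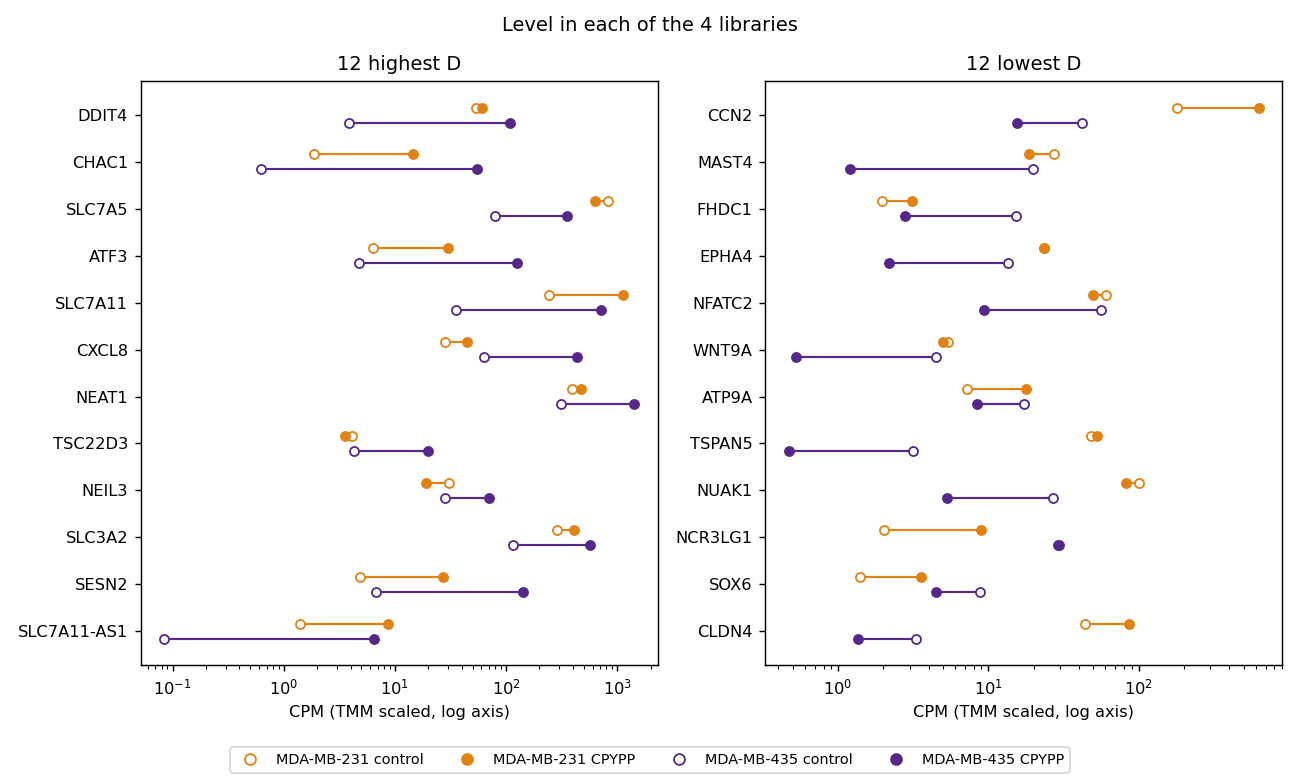
Level in each of the 4 libraries, in CPM on a log axis, of the 12 genes with the highest D (left) and the 12 with the lowest (right), 1 library per point and no error bars. Open circles are controls and filled circles are CPYPP; for DDIT4, SLC7A5 and SLC7A11 the MDA-MB-435 control lies far below the MDA-MB-231 control, while for ATF3, TSC22D3 and NEIL3 the controls lie close together.

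The remaining genes at the top of the ranking came from other pathways. CXCL8, the chemokine interleukin 8, had 630 and 753 counts in MDA-MB-231, against 1520 and 8303 in MDA-MB-435, with a D of 2.09 (interval 1.92 to 2.27). NEAT1, the long noncoding RNA that builds nuclear paraspeckles, had 8748 and 7879 counts, then 7484 and 27192, with a D of 1.91 (interval 1.86 to 1.97). Both were highest in MDA-MB-435 with CPYPP, and for NEAT1 the other 3 libraries lay between 315 and 471 CPM. TSC22D3, the glucocorticoid-induced leucine zipper gene GILZ, had 92 and 59 counts, then 103 and 378, with a D of 2.42 (interval 1.85 to 2.99). NEIL3, a DNA glycosylase, had 678 and 318 counts, then 671 and 1331, and so was lower after CPYPP in MDA-MB-231 but higher in MDA-MB-435, with a D of 1.98 (interval 1.75 to 2.22).

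Many heat shock genes were higher after CPYPP in both lines, and some of them differed in size of response. HSPA1A had 522 and 16564 counts in MDA-MB-231, against 593 and 50494 in MDA-MB-435, with log2 fold changes of 5.40 and 6.73 and a D of 1.33 (interval 1.15 to 1.5). HSPA1B had 1181 and 38209 counts, then 294 and 26838, with a D of 1.40. These genes encode the same inducible HSP70 and are nearly identical in sequence, so the split of reads between them is uncertain, and their sum gave a D of 1.34 (interval 1.22 to 1.46). EID3 and ZFAND2A, also linked to HSF1, had D values of 2.34 (interval 1.18 to 3.50) and 1.34 (interval 1.06 to 1.63). HSPA8, the constitutive HSC70, had 0.24, HSPH1, an HSP110, had 0.08, and DNAJB1, the main inducible HSP40, had 0.46 from log2 fold changes of 3.70 and 4.16. HSPA6, an HSP70 gene induced under severe stress, had 12 and 1639 counts, then 1 and 67, so its D of -1.13 had an interval from -4.09 to 1.84.

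As lists, the 11 HSP70 and HSP110 genes had a median D of 0.24, with 2 genes at 1 or more and 1 at -1 or less. Over all genes, 0.848% were at 1 or more and 2.06% at -1 or less. The 18 small heat shock, BAG and HSF1-linked genes had 0.25, with 4 genes at 1 or more (EID3, ZFAND2A, IER5 and RGS2) and none at -1 or less. The 19 HSP40 genes had 0.17 and the 23 genes of HSP90, its co-chaperones and the chaperonins 0.14, and no gene of these lists reached 1 in either direction. The heat shock element was searched as GAANNTTC, which reads alike on both strands, and was found in 4 of 10 windows of the HSP70 and HSP110 list (HSPA1A, HSPA1B, HSPA6 and HSPA8), in 5.75% of the windows of the genes examined and in 7.05% of all windows. The windows of HSPA1A (chr6:31815293-31815463) and HSPA1B (chr6:31827488-31827734), plus strand, are shown up to the annotated start of the transcript, because this pair carried the list's differences. Capitals mark the element.
HSPA1A: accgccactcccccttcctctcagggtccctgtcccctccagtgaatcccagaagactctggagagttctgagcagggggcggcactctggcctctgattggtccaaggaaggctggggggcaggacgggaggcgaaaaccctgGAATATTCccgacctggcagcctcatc
HSPA1B: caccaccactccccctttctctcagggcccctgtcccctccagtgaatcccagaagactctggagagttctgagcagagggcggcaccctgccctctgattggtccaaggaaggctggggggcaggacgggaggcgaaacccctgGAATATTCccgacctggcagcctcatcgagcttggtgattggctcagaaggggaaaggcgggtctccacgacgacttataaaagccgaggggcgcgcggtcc

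Genes of the endoplasmic reticulum responded alike in the lines. The 27 genes of unfolded protein response sensors and ER-associated degradation had a median D of 0.01, and the 21 ER chaperones and disulfide isomerases 0.03, values that turned to -0.05 and -0.03 when the libraries were scaled by total counts. HSPA5, the ER chaperone BiP, had a D of 0.22, and DNAJB9, a target of spliced XBP1, had 0.27. XBP1 was the exception, with 1540 and 2090 counts in MDA-MB-231, against 1401 and 4237 in MDA-MB-435, and a D of 1.06 (interval 0.93 to 1.19). ERN1, which encodes the sensor IRE1 that splices XBP1, had -0.51.

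Most oxidative stress genes had a D between -1 and 1. Over all genes, 0.848% reached a D of 1 or more and 2.06% a D of -1 or less. The 27 thioredoxin, iron and other NRF2 targets had a median D of 0.20, with AKR1C1 at 2.0 (interval 1.46 to 2.54), AKR1B10 at -1.78 (interval -3.18 to -0.38) and no other beyond 1. AKR1C1 and AKR1B10 are aldo-keto reductases, and AKR1B10 had only 6 and 19 counts in the controls. TXNRD1, thioredoxin reductase, had 24308 and 60158 counts, then 14383 and 59957, with a D of 0.65. The 19 glutathione genes had a median of 0.20. Within them the subunits of glutamate-cysteine ligase parted, with 0.75 (interval 0.65 to 0.85) for the modifier GCLM and -0.67 (interval -0.81 to -0.53) for the catalytic GCLC. ABCC3, an exporter of glutathione conjugates, was the only gene of this list beyond 1, at -1.02.

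Small but broadly shared differences were found in several lists, among them those of RNA and protein turnover and of the respiratory chain. A like share was above 0 in other lists, such as 10 of 11 HSP70 and HSP110 genes and 66 of 77 mitochondrial ribosomal protein genes. Of 82 cytosolic ribosomal protein genes, 81 had a D above 0 (55.2% over all genes), with a median of 0.30, and the median log2 fold change was -0.15 in MDA-MB-231, against 0.16 in MDA-MB-435. RPL22L1 was the only one to reach 1, at 1.11. Of 17 host genes of small nucleolar RNAs, 15 were above 0, the median was 0.53, and the highest were SNHG1 (0.90), SNHG15 (0.69) and SNHG17 (0.67). The 19 SR splicing factors and their kinases had a median of 0.44, with CLK1, a kinase of SR proteins, at 1.09 (interval 0.96 to 1.21). Of 36 proteasome subunits, 34 were above 0, with a median of 0.27, and PSMA2, at 1.18, rested on 33 to 88 counts. Of 74 nuclear-encoded respiratory chain subunits, 67 were above 0, with a median of 0.22. Exon length went with D over all genes. Over 5 equal groups of genes from the shortest to the longest exon length, the median D went from 0.12 to -0.06. Over 5 equal groups from the lowest to the highest mean level, the median D went from -0.12 to 0.09. The part of length and of level in the lists was not tested.

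By their median, NF-kappaB genes were lower after CPYPP in MDA-MB-231 and near their control level in MDA-MB-435. The 19 genes kept from 30 listed had median log2 fold changes of -0.44 and 0.07 and a median D of 0.51. Single members of the list moved both ways in MDA-MB-435, where 3 were at least 2-fold higher and 4 at least 2-fold lower (2.2% and 3.09% of all genes). In MDA-MB-231 these numbers were 0 and 2 (1.7% and 1.38% of all genes). CXCL8, NFKBIZ (1.25), NFKBIA (1.11) and RELB (1.03) reached a D of 1, and CSF2, the growth factor GM-CSF, had -1.51. Over all genes, 0.848% reached 1 and 2.06% reached -1. NFKBIA encodes the inhibitor IκBα, and had 1015 and 836 counts in MDA-MB-231, against 643 and 1223 in MDA-MB-435. ICAM1, BIRC3 and TNFAIP2, which are classical targets, were lower by 0.69 to 0.99 on the log2 scale in MDA-MB-231 and lay between -0.27 and 0.21 in MDA-MB-435.

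**Figure D3:**
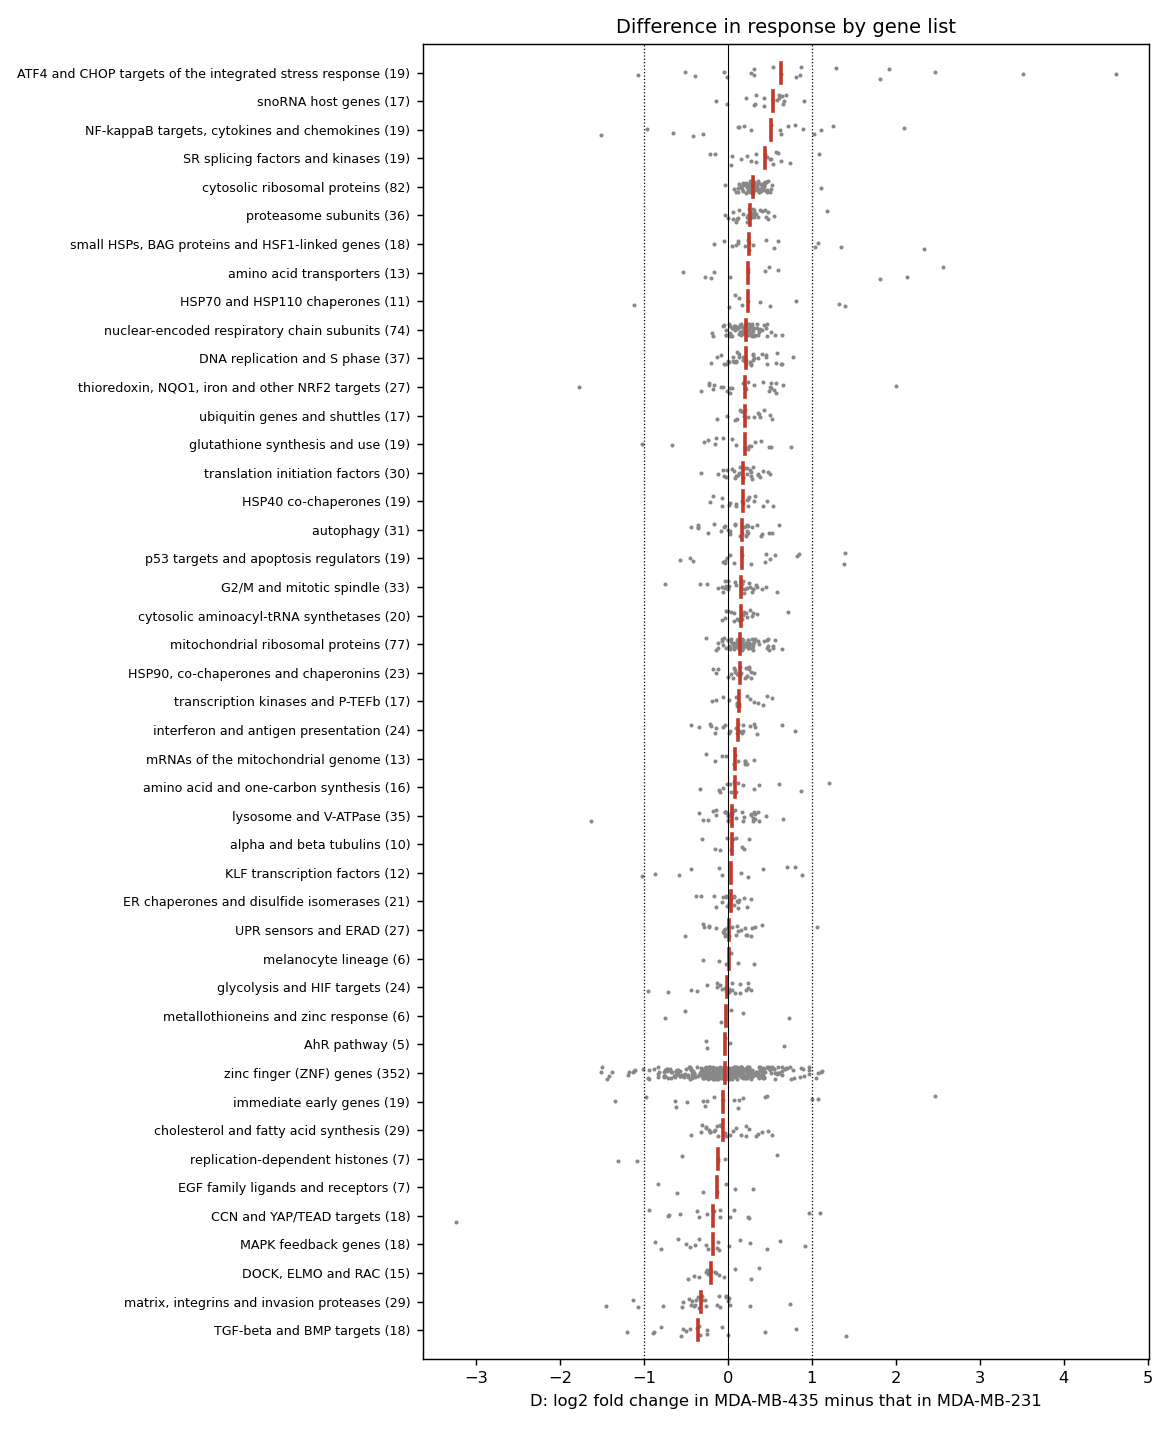
D of each member (grey points) and the list median (red bar) for 45 gene lists, sorted by median, with the number of members in brackets and dotted lines at a D of 1 and of -1. The medians run from 0.64 for ATF4 and CHOP targets to -0.36 for TGF-beta and BMP targets, while single members spread more widely than the medians.

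At the negative end, CCN2 (ENSG00000118523, chr6:131948176-131951372), the connective tissue growth factor and a target of YAP and TGF-beta, moved in opposite directions. It had 4043 and 10575 counts in MDA-MB-231, against 1001 and 296 in MDA-MB-435. The level went from 181 to 632 CPM in MDA-MB-231, and from 42.1 to 15.5 CPM in MDA-MB-435, with log2 fold changes of 1.80 and -1.44 and a D of -3.24 (interval -3.44 to -3.05). The MDA-MB-231 control was 4.31 times as high as the MDA-MB-435 control, and after CPYPP the ratio was 40.8. CCN1, its close relative, was higher in both lines, with log2 fold changes of 0.46 and 0.71.

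Several of the lowest D values came from genes whose level after CPYPP was much lower in MDA-MB-435 and less changed in MDA-MB-231. MAST4, a kinase gene, had 608 and 311 counts in MDA-MB-231, against 471 and 23 in MDA-MB-435, with a D of -3.49 (interval -4.12 to -2.85). NFATC2, a calcium-regulated transcription factor, had 1345 and 838 counts, then 1338 and 178, with a D of -2.33 (interval -2.58 to -2.07). EPHA4, a receptor of ephrins, had 527 and 395 counts, then 322 and 42, with a D of -2.62 (interval -3.12 to -2.12). For these 3 genes the MDA-MB-435 library with CPYPP was the lowest of the 4. WNT9A, a Wnt ligand (D -2.99), NUAK1, a kinase related to AMPK (-2.03), TSPAN5, a tetraspanin (-2.88), and FHDC1, a formin-like gene (-3.12), had the same order within MDA-MB-435, and WNT9A and TSPAN5 had 10 and 9 counts left there. NCR3LG1, the ligand of the natural killer cell receptor NKp30, differed the other way, with 45 and 150 counts in MDA-MB-231, against 689 and 563 in MDA-MB-435, and a D of -2.13. The lowest D of all, -3.57, belonged to a gene without a symbol.

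Matrix and TGF-beta genes stood lowest among the lists. Of 29 genes of matrix, integrins and invasion proteases kept from 35 listed, 4 had a D above 0, and the median was -0.32, from median log2 fold changes of -0.05 in MDA-MB-231, against -0.39 in MDA-MB-435. In all, 3 members were at -1 or less and none was at 1 or more (2.06% and 0.848% of all genes). ITGA2 (-1.13) and COL6A3 (-1.07) were among the 3. ITGA2, the collagen-binding integrin subunit α2, had 5223 and 3927 counts, then 4303 and 1580. FN1 (-0.55) and THBS1 (-0.40), which encode fibronectin and thrombospondin 1, were both negative. Of 18 TGF-beta and BMP genes, 3 were above 0 and the median was -0.36, with SMAD6, an inhibitor of BMP signalling, at -1.2 (interval -1.52 to -0.88) and INHBA, the activin subunit, at 1.41 (interval 1.03 to 1.78). TGFBR2, the type II receptor, had 3087 and 1788 counts, then 3029 and 1275, with a D of -0.56.

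The 18 CCN and YAP/TEAD genes had a median of -0.17, with CCN2 at one end and F3, tissue factor, at the other (1.10, from 45864 and 20342 counts, then 519 and 527). ANKRD1 (-0.94), PTPN14 (-0.71) and AMOTL2 (-0.71) were the next lowest. The 15 genes of DOCK, ELMO and RAC had a median of -0.20, with 3 above 0 and none at 1 or -1. CPYPP is known as an inhibitor of the DOCK proteins among them. DOCK2 had 649 and 505 counts, then 134 and 88, with a D of -0.34 (interval -0.77 to 0.08). The 18 MAPK feedback genes had -0.18. The immediate early genes had -0.06, with ATF3, IER5 (1.08) and MYC (1.00) at 1 or more and FOSB (-1.34) at -1 or less, and MYC was the lowest of all genes with a D of 1 or more. ARPC3P3, a pseudogene whose counts may come from its parent gene, lay just outside at 0.99, and at the other end TIGAR lay just inside at -1.005. The other lists had medians between -0.14 and 0.21. Among them GADD45A and PMAIP1, stress genes of the p53 and apoptosis list, reached 1.39 each, TFEB, a regulator of lysosome genes, had -1.64 on 51 to 216 counts, and 4 of 352 zinc finger (ZNF) genes were at 1 or more and 11 at -1 or less, shares near those over all genes (0.848% and 2.06%).

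**Figure D4:**
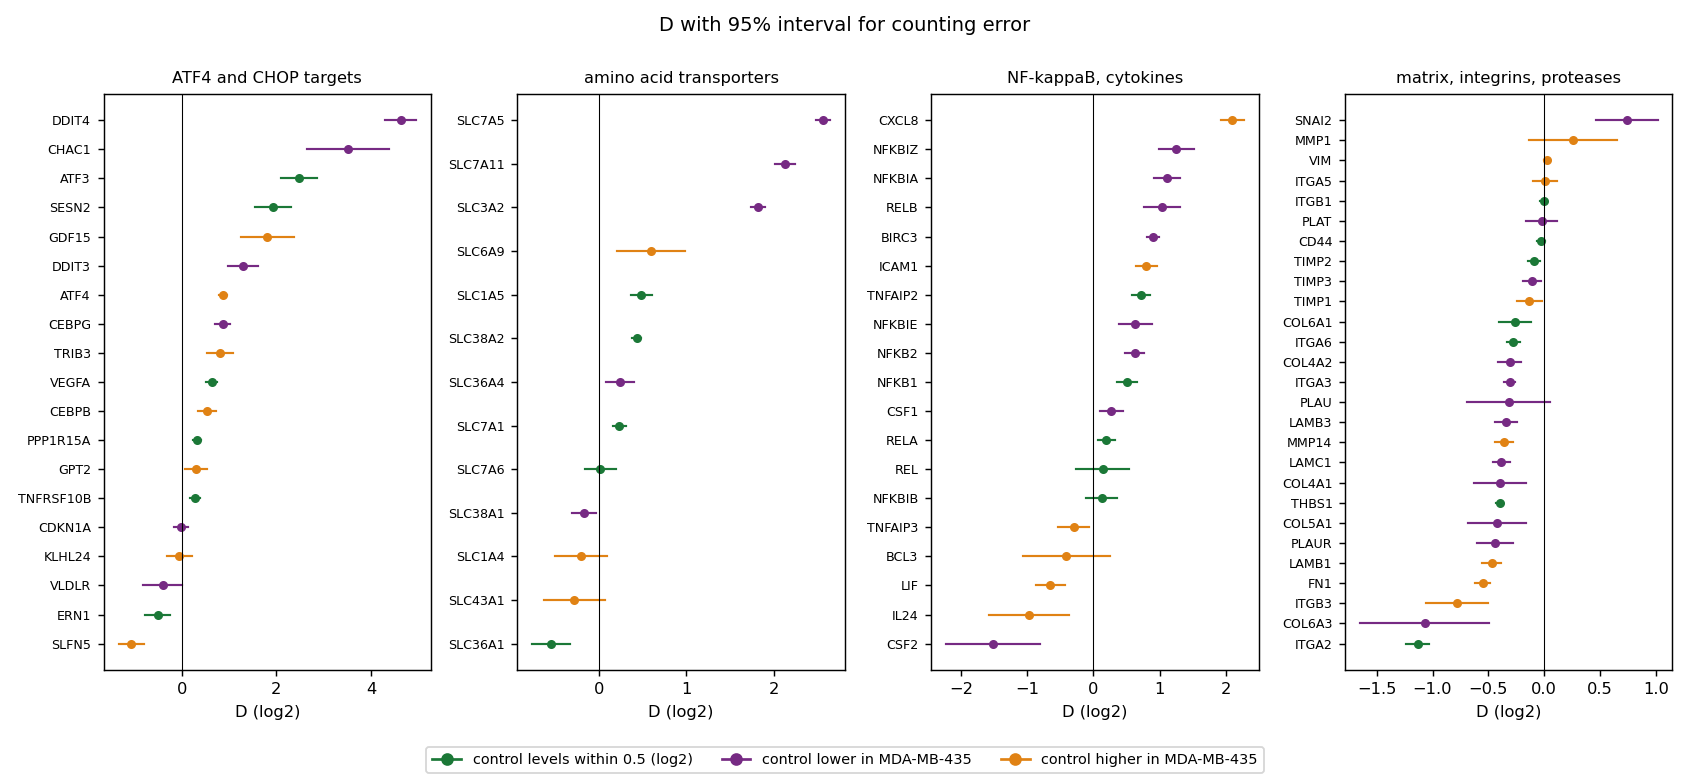
D (points) with its 95% interval for counting error (lines) for members of 4 lists, coloured by whether the control levels lay within 0.5 on the log2 scale. In the list of ATF4 and CHOP targets the lower control belonged to MDA-MB-435 for DDIT4, CHAC1 and DDIT3, while ATF3 and SESN2 had like controls; most of the matrix genes drawn lie at or below 0.

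Gene groups were also taken from the deposited GO annotation. Over 657 biological process terms with at least 20 genes, the median D ran from -0.31 to 0.28. The highest were cytoplasmic translation (0.28, 107 genes), proteasomal ubiquitin-independent protein catabolism (0.28, 21 genes), regulation of cyclin-dependent kinase activity (0.27, 41 genes), small ribosomal subunit biogenesis (0.26, 23 genes) and maturation of the small subunit rRNA (0.26, 20 genes). The lowest were dendrite development (-0.31, 20 genes), regulation of synaptic transmission (-0.25, 30 genes), semaphorin-plexin signalling (-0.24, 22 genes), neural crest cell migration (-0.24, 22 genes) and negative regulation of protein kinase B signalling (-0.23, 20 genes). Terms share genes and are not independent.

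A difference in fold change could reflect a larger response in either line or opposite responses. A line was counted as unchanged when its log2 fold change lay within 0.5 of 0. Of the 94 genes with a D of 1 or more, 37 were higher in MDA-MB-435 alone, 26 were lower in MDA-MB-231 alone, 20 were higher in both, 3 lower in both and 8 opposite. Of the 228 with a D of -1 or less, 108 were lower in MDA-MB-435 alone, 57 were higher in MDA-MB-231 alone, 9 were higher in both, 18 lower in both and 36 opposite. Of the 20 genes higher in both lines, 14 also gained more CPM in MDA-MB-435, whereas HSPA1B, IL12A, PMAIP1, RGS2, SLC7A11 and SLC7A11-AS1 gained more in MDA-MB-231. Over all genes, 38 changed by at least 0.5 on the log2 scale in opposite directions, 31 of them higher in MDA-MB-231 but lower in MDA-MB-435. CCN2 and ATP9A were the 2 genes with at least 2-fold changes in opposite directions.

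The control levels of the lines were then set beside D. B is the log2 ratio of the control level in MDA-MB-435 to that in MDA-MB-231. B and D use the same control libraries with opposite sign, so counting error in a control moves them in opposite directions, and no correlation is given. Of the 94 genes with a D of 1 or more, 31 (33.0%) had a control level at least 2-fold lower in MDA-MB-435, against 12.8% of all genes, and 7 (7.45%) at least 2-fold higher, against 13.4%. Of the 228 with a D of -1 or less, 80 (35.1%) had a control level at least 2-fold higher in MDA-MB-435 and 32 (14%) at least 2-fold lower. Genes with like control levels (B within 0.5 of 0) made up 43.9% of all genes, 31 of the 94 and 57 of the 228. Within these 4869 genes, 0.637% had a D of 1 or more and 1.17% a D of -1 or less.

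The median D by control level ran from 0.11 to -0.31. It was 0.10 where B lay between -3 and -1 (1311 genes), 0.11 between -1 and -0.5, 0.07 between -0.5 and 0.5, -0.03 between 0.5 and 1, -0.15 between 1 and 3 (1408 genes) and -0.31 above 3 (81 genes). Below -3, where the control of MDA-MB-435 was lowest, it was -0.12 (106 genes), although 10 of those genes had a D of 1 or more. When the control reads were divided at random, with separate parts for B and for D, the medians from the lowest to the highest bin were -0.17, 0.08, 0.11, 0.07, -0.01, -0.14 and -0.31. The medians were thus close with and without shared control reads. Any variation between control cultures would enter both B and D and was not tested.

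**Figure D5:**
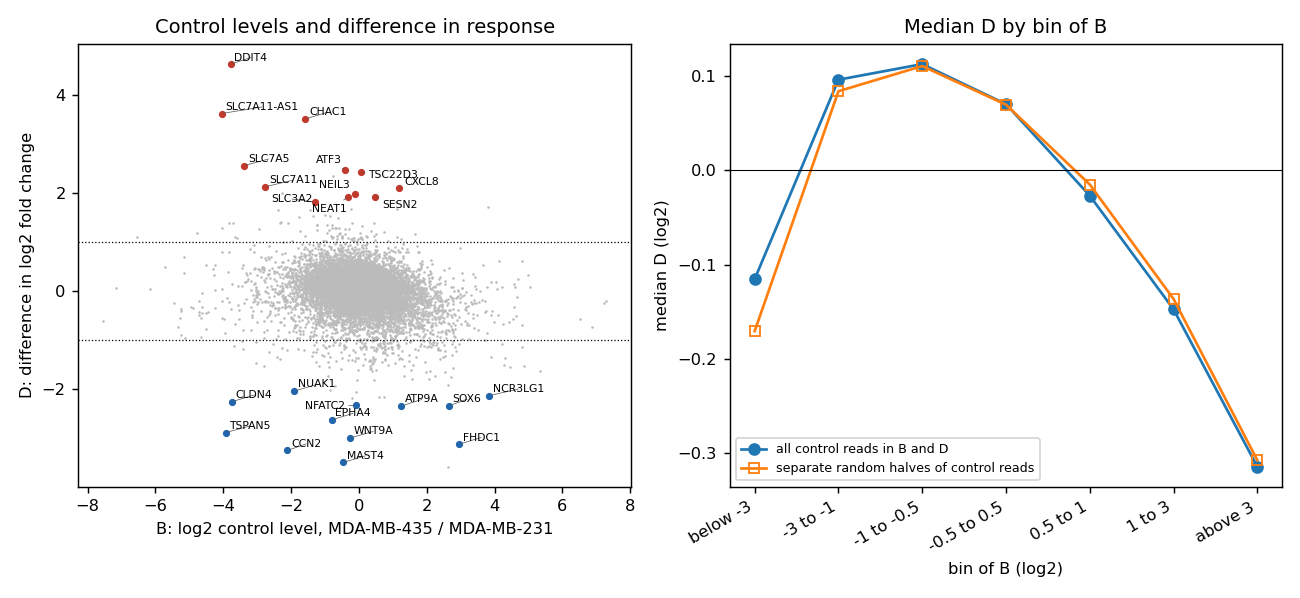
Left, D against B, the log2 ratio of control levels (MDA-MB-435 over MDA-MB-231), for 11084 genes with the 12 highest and the 12 lowest named genes marked. Right, the median D in 7 bins of B with all control reads (circles) and with separate random parts of the control reads for B and D (squares); the median falls from 0.11 to -0.31 between the third and the last bin.

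Among the genes with the highest D, the gap between control levels varied from gene to gene. DDIT4, SLC7A5 and SLC7A11 started 13.7, 10.4 and 6.79 times lower in MDA-MB-435, and after CPYPP MDA-MB-435 stood 1.80 times above MDA-MB-231 for DDIT4 and 1.77 and 1.55 times below it for SLC7A5 and SLC7A11. CHAC1 and SLC3A2 started 2.99 and 2.48 times lower in MDA-MB-435, and after CPYPP MDA-MB-435 stood 3.82 and 1.42 times above MDA-MB-231. ATF3, SESN2, NEAT1, TSC22D3 and NEIL3 had like controls, and after CPYPP the level was 4.17, 5.22, 3.02, 5.61 and 3.67 times as high in MDA-MB-435. CXCL8 was already 2.26 times as high in the MDA-MB-435 control and was 9.66 times as high after CPYPP. For the 94 genes the order of the lines was reversed after CPYPP for 48, the gap narrowed for 22 and widened for 24. For the 228 these numbers were 87, 66 and 75, and over all genes the shares were 12.8%, 45.1% and 42.1%. The gap after CPYPP is the sum of B and D, and these genes were chosen for a large D. More reversals among them than over all genes follow from that choice, so nothing is read from the contrast.

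List medians over members with like control levels were close to those over all members for some lists and apart for others. They were 0.47 for the 6 such ATF4 and CHOP targets (0.64 over 19), 0.30 for 48 ribosomal protein genes (0.30), 0.27 for 23 proteasome subunits (0.27), 0.46 for 13 SR genes (0.44) and 0.61 for 10 snoRNA host genes (0.53). They were -0.26 for 7 matrix genes (-0.32) and -0.45 for 4 TGF-beta and BMP genes (-0.36). For NF-kappaB genes the median was 0.19 over the 5 members with like controls, against 0.51 over 19. It was nearer 0 over members with like controls also for glutathione genes (0.08 over 10, against 0.20) and for small heat shock, BAG and HSF1-linked genes (0.12 over 5, against 0.25). It was farther from 0 for other NRF2 targets (0.49 over 11, against 0.20), p53 and apoptosis genes (0.36 over 8, against 0.16), CCN and YAP/TEAD genes (-0.48 over 4, against -0.17) and MAPK feedback genes (-0.35 over 5, against -0.18). For immediate early genes it changed sign, at 0.18 over 5 members, against -0.06. HSP40 genes had 0.10 over 11, against 0.17, and the metallothionein list (-0.52, against -0.02) and the melanocyte lineage list (0.31, against 0.01) each kept 1 gene. Few members remained in several of these lists.

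Called genes were unevenly spread over expression level. Over 5 equal groups by mean level, 7.80% of the genes of the lowest group had a D of -1 or less and 2.21% a D of 1 or more, against 0.135% and 0.586% in the highest. The counting interval reached a median of 0.549 to either side of D in the lowest group and of 0.0990 in the highest. The lowest group held 173 of the 228 genes with a D of -1 or less. It also held 49 of the 94 genes with a D of 1 or more. Both counts therefore rested largely on weakly expressed genes, the count of negative differences more so. The genes with the highest D included abundant ones such as SLC7A5, SLC7A11, SLC3A2 and NEAT1. They also included SLC7A11-AS1, with 2 counts in the MDA-MB-435 control. The genes with the lowest D included CCN2, with 10575 counts in MDA-MB-231 with CPYPP.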

How the data were processed

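RNA from 4 cultures was sequenced, with 1 library for each line and treatment. The authors deposited unnormalized whole-number counts for each gene, beside its position, exon length and GO terms. The submitters' processing notes name cutadapt 1.9.1, HISAT2 2.2.1, HTSeq 0.6.1, DESeq2 and GRCh37.p13, yet of 58254 identifiers shared with GENCODE v29, 58241 have overlapping GRCh38 positions, so coordinates are given as GRCh38. The strand setting is not given in the sources used here.

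Counts were scaled by TMM over the 4 libraries (edgeR 4.0.16, R 4.3.3), with factors of 0.998 and 0.974 in MDA-MB-231, against 1.05 and 0.98 in MDA-MB-435. D, its 95% normal interval on the log scale for counting error, and medians were computed in Python 3.11.15 (numpy 2.4.6, pandas 2.3.3, scipy 1.17.1, matplotlib 3.10.9). The interaction of line and treatment leaves 0 residual degrees of freedom, so it was not tested. The procedure was tested on simulated data. The genes kept (50 or more counts in some library of each line) hold 97.1% to 98.0% of the counts, and none is at 0 in a library. No molecular identifiers are named in the sources used here. The intervals take each read as an independent count, so reads copied from the same molecule would make them too narrow. They cover counting error only.

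The genes named are the 12 with the highest and the 12 with the lowest D by the interval bound nearest 0, the 5 largest opposite changes, the 5 largest like rises, and in each list the called members, members with the largest D and the founding genes of the pathway. The rule, the members and the 45 lists were chosen with earlier results of these data known. Promoter windows come from RefSeq (GRCh38.p14) and were printed without annotated untranslated sequence, except for 30 bases around the element in CHAC1. Alternatives concerned scaling (total counts, upper quartile, DESeq2 1.42.0 size factors), the minimum count, a prior count of 5, protein-coding genes alone, a 1.5-fold limit, summed HSPA1A and HSPA1B, divided control reads and a wider limit for like controls. TMM within each line was added after the data were seen. Some list members are not reported here by name or drawn one by one, but they count in list totals and medians.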

Additional observations from a re-analysis of the deposited data

Results flagged for a closer look

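The 5 genes with the largest opposite changes were set apart because the change after CPYPP in one line was opposite in direction to that in the other. Each direction rests on 1 pair of libraries, and the difference was not tested against replicates. CCN2 had a D of -3.24. ATP9A, a phospholipid flippase gene, had 162 and 298 counts in MDA-MB-231, against 411 and 160 in MDA-MB-435, with a D of -2.34. SOX6, a transcription factor gene, had 31 and 60 counts, then 209 and 86, with a D of -2.33. CLDN4, which encodes the tight junction protein claudin 4, had 988 and 1443 counts, then 79 and 26, with a D of -2.25. C2orf16 had 31 and 54 counts, then 50 and 21, with a D of -2.15 (interval -3.12 to -1.18). In all 5 the level was higher after CPYPP in MDA-MB-231 but lower in MDA-MB-435.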

How the results depend on the processing

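No paired analysis was possible because the labels give no replicate numbers and each condition has 1 library, and for the same reason no library could be left out. For the genes with the 12 highest and 12 lowest D, D kept its sign under each scaling, minimum count, prior count and gene set in which the gene remained. Other called genes were not followed one by one. The counts of genes with a D of 1 or more and of -1 or less, 94 and 228 as reported, were 198 and 541 with a minimum of 20 counts, 46 and 50 with 200, 2485 and 3973 with 1, and 513 and 778 at a 1.5-fold difference. A lower minimum adds genes with few counts. Under the 3 other scalings and TMM within each line the counts stayed between 81 and 99 and between 211 and 274, and the median of all genes moved by -0.06 at most. List medians moved by more than the typical counting error in 4 cases. The mRNAs of the mitochondrial genome, at 0.09, had 0.024 with total counts, 0.11 with DESeq2 size factors and 0.12 with TMM within each line. The snoRNA host genes, at 0.53, had 0.34 over protein-coding genes alone. With control levels within 1 rather than 0.5 on the log2 scale, medians over genes with like controls went from 0.49 to 0.36 for other NRF2 targets, from -0.52 to -0.17 for metallothioneins, from 0.19 to 0.56 for NF-kappaB, from -0.48 to -0.37 for CCN and YAP/TEAD, from 0.36 to 0.16 for p53 and apoptosis, and from -0.01 to -0.14 for the AhR pathway. The cause was not tested. Of the 45 list medians, 9 changed sign under another scaling, each with a reported median between -0.03 and 0.05 (UPR, ER chaperones, lysosome, KLF, tubulins, melanocyte lineage, metallothioneins, glycolysis and AhR), so no direction is read for them. With a minimum of 200 counts the immediate early genes went from -0.06 to 0.12, and the medians of KLF, ZNF and metallothionein genes also changed sign, as did that of the melanocyte genes with a minimum of 20 or of 1.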
